A study of Mus musculus with 34 samples.

Results

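Homeostatic microglia genes are described here through 9 genes chosen by name: P2ry12, P2ry13, Tmem119, Cx3cr1, Sall1, Olfml3, Csf1r, Siglech and Gpr34. All 9 were among the 55385 genes of the count table, and all 9 passed the filter on low counts that left 17518 genes for testing. None was picked on its measured values by the rule, although the set was proposed with earlier results of these data known. The smallest count of any of them in any library was 157 (Gpr34) and the largest was 4745 (Csf1r).

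Microglia are the resident macrophages of the brain, and in the healthy adult brain they keep a typical set of genes on. That set is held up by signals from the tissue, among them TGF-beta and the ligands of the receptor Csf1r. Around amyloid plaques microglia multiply and turn on another set of genes, which includes Cst7, Clec7a and Trem2, while single cells there are known to lower genes of the homeostatic set. A bulk tissue level of a homeostatic gene therefore joins how many microglia are present with how much of the gene each one makes.

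The libraries hold poly(A) RNA of the hippocampus, 1 library for each of 34 mice, all 6 months old. The 4 genotypes were wild-type C57BL/6J (WT); Dp16, which carries an extra copy of a segment of chromosome 16 that matches much of human chromosome 21; 5xFAD, whose human amyloid precursor and presenilin transgenes with familial Alzheimer mutations are driven by the neuronal Thy1 promoter; and the cross, 5xFAD-Dp16. Animals were given tofacitinib, an inhibitor of Janus kinases 1 and 3, at 15 mg/kg by gavage every day for a month, or vehicle alone, here called sham. There were 5 sham and 5 tofacitinib WT animals, 3 and 5 of Dp16, 4 and 5 of 5xFAD, and 3 and 4 of 5xFAD-Dp16. The 16 females and 18 males were spread over all groups, and the labels say nothing of litters or preparation days, so p-values measure the spread between these libraries. None of the 9 genes lies on chromosome 16, so none is triplicated in Dp16.

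Libraries held 14.9 to 21.1 M counts. Thy1, whose promoter drives the transgenes, was at 967 to 2875 counts per M (CPM) in the transgenic animals and at 782 to 934 in the others, so all 34 libraries match their amyloid label by this gene. 3 libraries stood apart in markers of hippocampal neurons: WT tofacitinib 3, 5xFAD tofacitinib 2 and 5xFAD-Dp16 sham 4. Their mean log2 CPM over 12 markers of hippocampal neurons was 2.55, 2.90 and 2.59, against 5.24 to 6.14 in the other 31 libraries. The latter 2 were also high in thalamic markers (6.77 and 5.69, others 3.09 to 5.18, WT tofacitinib 3 at 3.56). Striatal markers were high in WT tofacitinib 3 and 5xFAD tofacitinib 2, at 6.07 and 6.86, against at most 4.73 in the other 31 and 3.83 in 5xFAD-Dp16 sham 4. The other 31 libraries were not alike in makeup either. Their choroid plexus markers ran from 1.00 to 7.11. Over all libraries the choroid plexus sum had a median of 1220 CPM without and 281 CPM with the transgenes. Among the 31, the highest thalamic and striatal values, 5.18 and 4.73, and the lowest hippocampal value, 5.24, were in 5xFAD-Dp16 tofacitinib. The part of tissue makeup in the results was not tested. Counts and medians that the 3 libraries low in hippocampal markers move are also given without them.

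The promoters of 3 of the 9 genes are shown because these genes lie on chromosome 3 and differed in whether they hold a core motif of PU.1, the factor of the Ets family that microglia need. Each line is the stretch of 100 bases before the start site, 5′ to 3′ on the gene's own strand (minus for all 3), from RefSeq on GRCm38.p6, with matches to GAGGAA or GGAAGT in capitals. They lie at chr3:59262986-59263085 for P2ry12, chr3:59210883-59210982 for P2ry13 and chr3:103738002-103738101 for Olfml3.
P2ry12: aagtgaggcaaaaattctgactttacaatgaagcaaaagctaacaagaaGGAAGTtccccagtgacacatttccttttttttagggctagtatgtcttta
P2ry13: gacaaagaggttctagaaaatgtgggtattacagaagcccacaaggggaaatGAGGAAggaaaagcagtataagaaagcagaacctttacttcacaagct
Olfml3: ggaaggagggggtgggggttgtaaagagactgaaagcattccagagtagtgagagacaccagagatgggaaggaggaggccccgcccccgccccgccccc
Both motifs were searched on both strands of the table's windows of 300 bases (250 before and 50 after the start), and they can overlap, since GAGGAA followed by GT holds both. P2ry12 had GGAAGT beginning 51 bases before its start, and P2ry13 had GAGGAA beginning 48 bases before its start. Siglech held both on the opposite strand, Sall1 held GGAAGT in 1 of its 3 windows, and Cx3cr1 and Olfml3 held neither. Tmem119, Csf1r and Gpr34 had no entry. Of 32851 windows in the table, 43.4% held at least 1 of the motifs, and 17.9% held 1 within the 100 bases before the start, so a match is common and is given only as a description.

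Levels between the 9 genes can be compared per length, in the authors' RPKM (reads per kilobase of gene per M reads). In the 5 WT sham animals Csf1r, the receptor for the survival factors Csf1 and Il34, was highest at 22.6 ± 2.07 RPKM (SD, n = 5), and P2ry12, the ADP receptor that steers microglial processes to injury, followed at 19.4 ± 1.5. Their ranges overlapped, at 20.7 to 25.1 and 17.5 to 21.6. Cx3cr1, the receptor for the neuronal chemokine fractalkine, was at 14.2 ± 1.38, and Tmem119, a membrane protein used to tell microglia from other macrophages, reached 15.1 in the highest animal. These 2 overlapped each other and stood apart from the genes above and beneath them. The other 5 formed a lower group in which each neighbour overlapped the next: the secreted glycoprotein Olfml3 at 6.24, the transcription factor Sall1 at 5.79, the purine receptor P2ry13 at 5.36, the lysophosphatidylserine receptor Gpr34 at 5.08 and the sialic acid-binding lectin Siglech at 4.26 RPKM. Over all 34 animals the order was the same for the first 5, and Gpr34 moved up to the place after Olfml3, at 6.63 ± 2.27 (SD, n = 34).

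**Figure D1:**
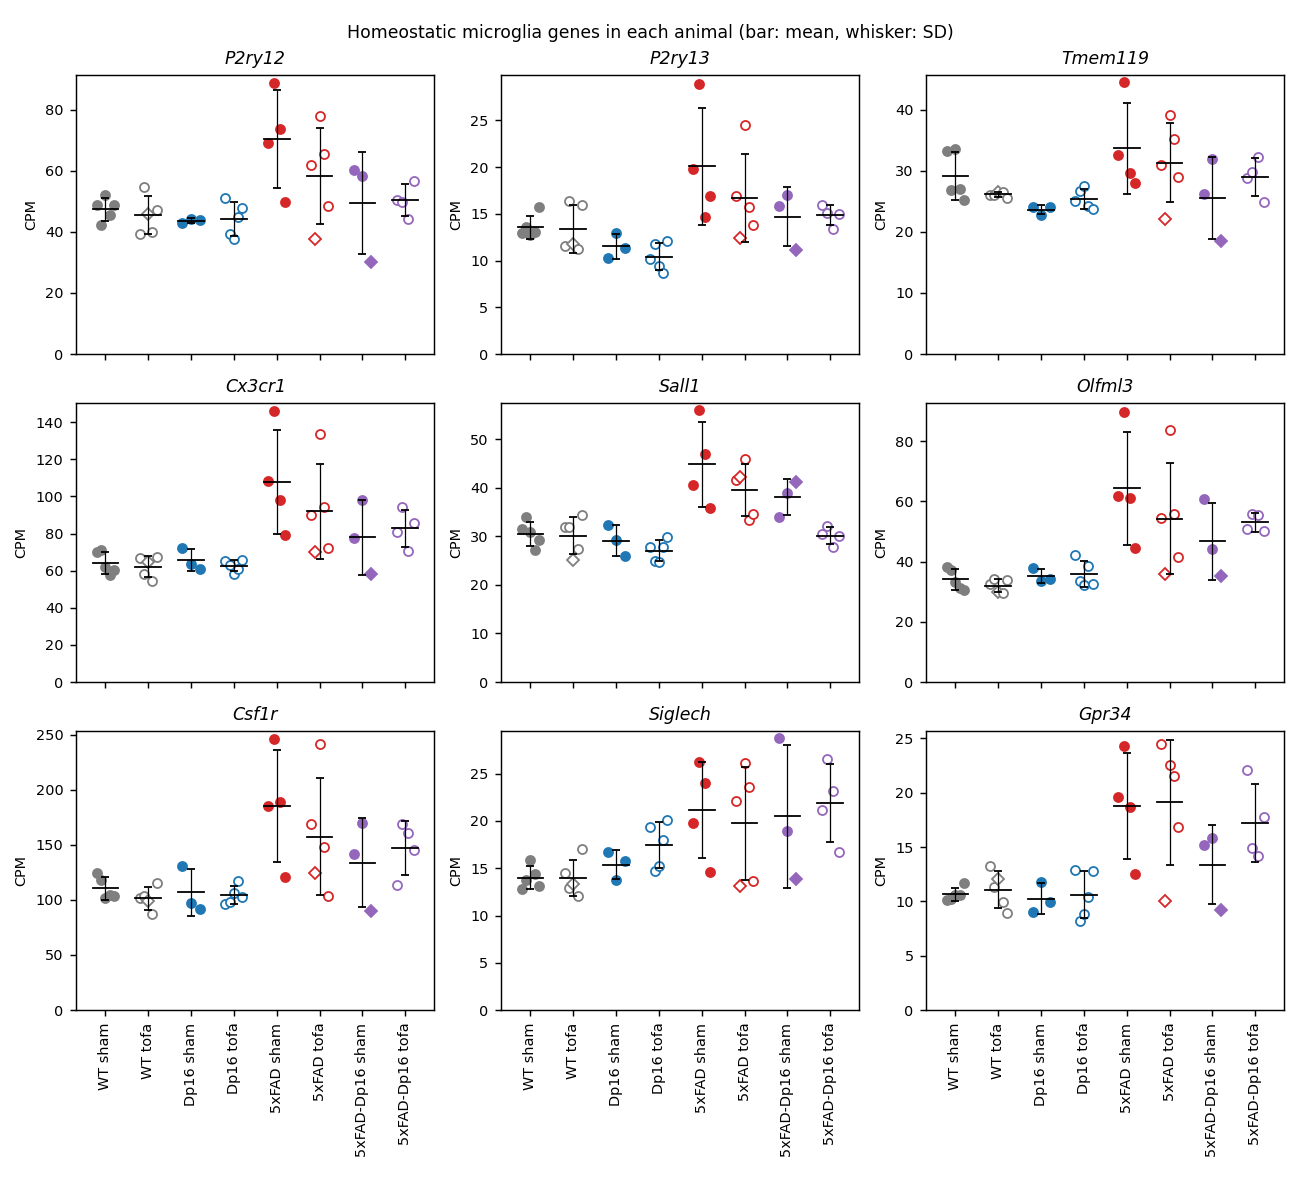
Level of each of the 9 genes in every animal, in CPM on a linear axis from 0, by genotype and treatment (filled: sham; open: tofacitinib; diamonds: the 3 libraries low in hippocampal markers; bars: group mean; whiskers: SD). The 8 groups hold 3 to 5 animals each. Csf1r runs from 90.3 to 245.6 CPM over the 16 animals with the amyloid transgenes and from 86.8 to 131.1 CPM over the 18 without.

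The comparison of all 16 animals with the amyloid transgenes and all 18 without asks how the homeostatic set differs in tissue of the amyloid model. Of the set, 7 of the 9 genes were higher with the transgenes, none was lower, and all 9 estimates were above 0 at a median log2 fold change of 0.46 (median of all genes 0.00). By the same test 1.59% of all tested genes were higher. The 2 not called were P2ry12 and Tmem119. In bulk tissue, more cells of a type and more RNA per cell cannot be told apart. Each value here is a contrast of group means from edgeR's quasi-likelihood test with a term for sex, weighting the 4 backgrounds equally, with p adjusted over all genes tested.

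Among the cell surface receptors, Csf1r ran from 86.8 over a median of 103.0 to 131.1 CPM without the transgenes and from 90.3 over 154.3 to 245.6 CPM with them. Of the 16 transgenic animals, 11 lay above every other animal. Its log2 fold change was 0.56 ± 0.10 (SE; adjusted p = 0.00119), which is 1.47-fold. Cx3cr1 ran from 54.2 over 63.5 to 72.5 CPM without and from 58.1 over 87.8 to 146.0 CPM with the transgenes. In 12 of 16 transgenic animals it was above every other animal, and its log2 fold change was 0.49 ± 0.08 (adjusted p = 0.000311).

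The nucleotide and lipid receptors did not move alike in size. Gpr34 had the largest estimate of the 9, 0.67 ± 0.11 (1.59-fold, adjusted p = 0.000181). Its levels were 8.16, 10.5 and 13.2 CPM (lowest, median and highest) without the transgenes and 9.21, 17.3 and 24.5 CPM with them, and 13 of the 16 transgenic animals lay above all others. P2ry13 rose by 0.44 ± 0.10 (adjusted p = 0.00779), from a median of 11.9 CPM (8.67 to 16.4) to 15.8 CPM (11.1 to 28.9), with 6 of 16 animals above all others. P2ry12, its neighbour on chromosome 3, was at a median of 45.2 CPM (37.6 to 54.7) without and 57.5 CPM (30.2 to 88.6) with the transgenes, a log2 fold change of 0.32 ± 0.09 that was not called (adjusted p = 0.0825). The 2 lowest transgenic values of P2ry12, 30.2 and 37.7 CPM, were those of 5xFAD-Dp16 sham 4 and 5xFAD tofacitinib 2.

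Of the remaining genes, Olfml3, which microglia secrete, gave the smallest adjusted p of the 9. It ran from 29.7 over 33.5 to 42.1 CPM without and from 35.3 over 55.1 to 89.9 CPM with the transgenes, a log2 fold change of 0.67 ± 0.09 (1.59-fold, adjusted p = 2.76e-05), and 13 of 16 animals lay above all others. Sall1, a transcription factor that maintains microglial identity, rose by 0.37 ± 0.06 (adjusted p = 0.000157), from a median of 29.1 to 37.4 CPM, with 10 of 16 animals above all others. Siglech rose by 0.46 ± 0.10 (adjusted p = 0.011), from 14.6 to 21.6 CPM in the medians, with 9 of 16 above. Tmem119 had the smallest estimate, 0.19 ± 0.07 (adjusted p = 0.305): its medians were 26.0 and 29.8 CPM, and 3 of 16 transgenic animals lay above the highest of the others.

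Without the 3 libraries low in hippocampal markers all 9 genes were called higher, beside 1.58% of all genes in either direction, and the median of the 9 was 0.53. P2ry12 was then at 0.41 ± 0.07 (adjusted p = 0.000441) and Tmem119 at 0.26 ± 0.06 (adjusted p = 0.0215), still the smallest of the 9. The 7 genes called over all animals were called in each of the 34 refits that left out 1 library. P2ry12 was called in 3 of those refits, without 5xFAD sham 4, 5xFAD tofacitinib 2 or 5xFAD-Dp16 sham 4. Those 3 refits called 305, 272 and 237 genes in all, against 279 over all animals.

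**Figure D2:**
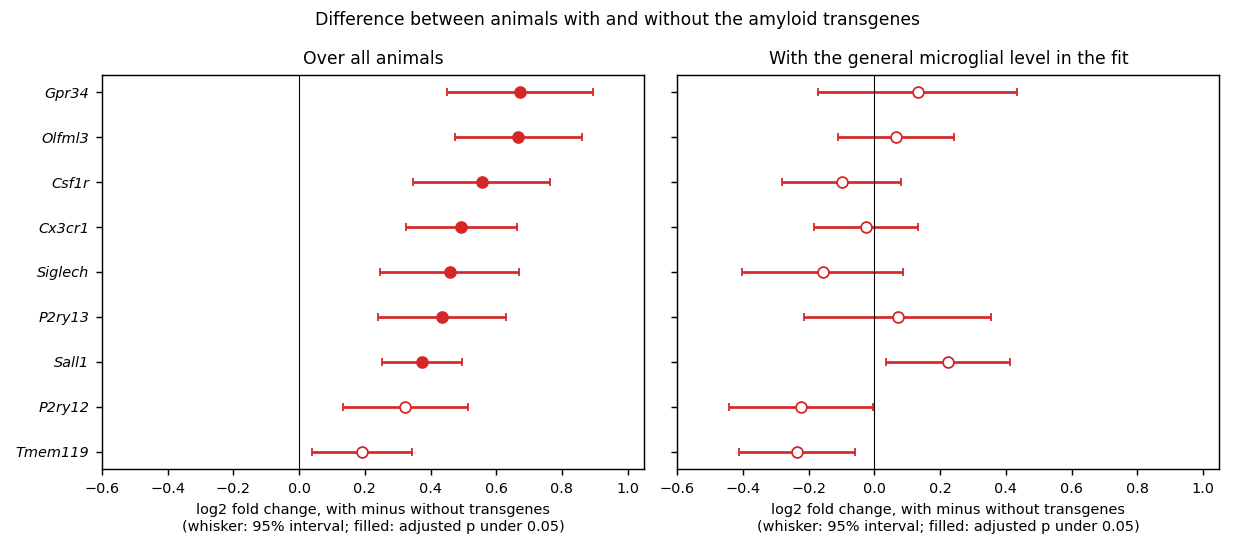
Log2 fold change of each gene between animals with and without the amyloid transgenes (points: estimate; whiskers: 95% interval; filled: adjusted p under 0.05), over all animals at left and with the mean level of 20 general microglia and macrophage genes as a term in the fit at right. At left 7 of 9 points are filled, with Gpr34 and Olfml3 at 0.67 and Tmem119 at 0.19; at right none is filled and 4 of 9 lie above 0.

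All 9 estimates were above 0 in both treatment arms and on both segment backgrounds, and fewer genes were called there, where groups hold 3 to 5 animals. In the sham arm, 5xFAD against WT, 3 of 9 genes were called higher (all genes 0.445%), all 9 estimates were above 0 and their median was 0.59. Cx3cr1 was at 57.8, 60.2, 61.7, 70.1 and 71.2 CPM in WT and at 79.4, 98.1, 108.2 and 146.0 CPM in 5xFAD, a log2 fold change of 0.76 ± 0.16 (adjusted p = 0.0128). Sall1 was at 27.2, 29.1, 30.8, 31.5 and 33.9 CPM against 35.9, 40.5, 46.9 and 56.0 CPM, or 0.56 ± 0.11 (adjusted p = 0.0106). Olfml3 was at 30.7, 31.4, 33.3, 37.3 and 38.1 CPM against 44.6, 61.2, 62.0 and 89.9 CPM, or 0.92 ± 0.18 (adjusted p = 0.00811). In these 3 genes and in Gpr34 every 5xFAD animal lay above every WT animal; 1.72% of all genes did so. Gpr34 was not called, at 0.83 ± 0.21 (adjusted p = 0.0747). These calls depended on 1 animal, as did most calls over all genes. 5xFAD sham 2 was the highest of its group for 9 of 9 genes. Without it 0 of 9 were called at a median of 0.46, and the calls over all genes fell from 78 to 12. Without WT sham 4 the count was 1 (40 over all genes). Without 5xFAD sham 4, the lowest of its group for 8 genes, it was 5 (105 over all genes). Without the 3 libraries low in hippocampal markers it was 5 (110 over all genes, 0.615%).

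In the tofacitinib arm, 5xFAD against WT, Olfml3 alone was called (1 of 9, all genes higher 0.308%, either way 0.32%), with all 9 estimates above 0 and a median of 0.50. It was at 29.7, 29.8, 32.6, 33.9 and 34.1 CPM in WT and at 35.9, 41.6, 54.6, 55.9 and 83.6 CPM in 5xFAD, with no overlap, as was also so of Cx3cr1 (all genes 0.754%), a log2 fold change of 0.77 ± 0.17 (adjusted p = 0.0395). That call was lost in 8 of 10 refits without 1 animal, with adjusted p up to 0.299. Those 8 refits called 14 to 29 genes in all, against 56 in the main fit. Without 5xFAD tofacitinib 2, the lowest of its group for 7 genes, 3 genes were called, Cx3cr1 and Gpr34 joining Olfml3 (85 over all genes). Without the 3 libraries low in hippocampal markers 3 were called as well (82 over all genes), at a median of 0.59. The highest animal of that group was 5xFAD tofacitinib 4, for 8 of 9 genes.

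On the segment background, 5xFAD-Dp16 against Dp16, none of the 9 was called in the sham arm, where no gene at all was (0% of all genes, 1275 of 17518 at an unadjusted p under 0.05), nor in the tofacitinib arm (all genes 0.0285%). The medians of the 9 were 0.34 and 0.40, and 0.51 in the sham arm without the 3 low libraries. Sall1 did not overlap in the sham arm (all genes 5.87%). In the tofacitinib arm P2ry13, Cx3cr1, Olfml3 and Gpr34 did not overlap between the groups (all genes 1.17%). Olfml3 there was at 32.2, 32.6, 33.5, 38.6 and 42.1 CPM in Dp16 and at 50.1, 50.7, 55.6 and 55.8 CPM in 5xFAD-Dp16, a log2 fold change of 0.57 ± 0.18 (adjusted p = 0.67). DESeq2 called none of the 9 in either arm.

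**Figure D3:**
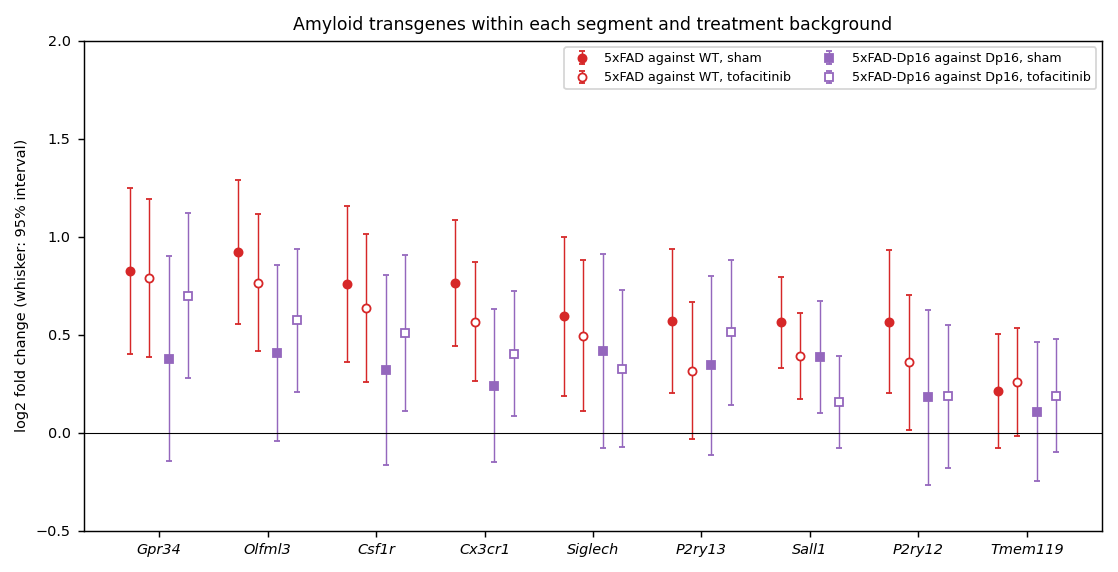
Log2 fold change of each gene with the amyloid transgenes on the WT background (circles) and on the Dp16 background (squares), in sham (filled) and tofacitinib (open) animals, with 95% intervals. All 36 estimates lie above 0; the filled circles, 5xFAD against WT in the sham arm, reach 0.92 for Olfml3, and the filled squares of the same gene stand at 0.41.

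Against WT, the 5xFAD-Dp16 animals gave 0 of 9 calls in either arm (all genes 0.959% in sham and 0.537% in tofacitinib animals), with medians of 0.26 and 0.40. The sham median was 0.06 without 5xFAD-Dp16 sham 2, 0.43 without 5xFAD-Dp16 sham 4 and 0.40 without the 3 low libraries. Those comparisons use the same WT animals as the ones of 5xFAD, so they are set side by side only. Olfml3 was closest, at 0.73 ± 0.18 in the tofacitinib arm (adjusted p = 0.0581), where it was called without the 3 libraries low in hippocampal markers (all genes 0.705%). Its 4 values of 50.1 to 55.8 CPM lay above the 5 WT values, and Cx3cr1 and Gpr34 did not overlap either (all genes 1.94%). In the sham arm Sall1 did not overlap (all genes 4.05%). Tmem119 was below 0 in the sham arm, at -0.20 ± 0.16 (adjusted p = 0.597), and at -0.03 without the 3 low libraries, where P2ry12 went from 0.06 to 0.33.

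Set directly against 5xFAD in the sham arm, 5xFAD-Dp16 had all 9 estimates below 0, at a median of -0.48, and none was called (all genes 0.268%). 7 of the 9 had an unadjusted p under 0.05, as did 2006 of the 17518 genes, and DESeq2 called none either. Cx3cr1 had the smallest adjusted p, at -0.50 ± 0.19 (adjusted p = 0.295): it was at 58.1, 77.7 and 98.2 CPM in 5xFAD-Dp16 and, as given above, at 79.4 to 146.0 CPM in 5xFAD. Every gene overlapped between the groups. 5xFAD-Dp16 sham 4, low in hippocampal markers, was the lowest of its 3 animals for 8 of 9 genes, and Sall1 was highest in it. Without the 3 low libraries the median was -0.29, and Siglech turned from -0.03 to 0.21. In the tofacitinib arm the median of the same comparison was -0.16 with 0 called (all genes 0.217%), 8 of 9 estimates being below 0, and -0.26 without the 3 low libraries. There Sall1 was at 27.8, 30.1, 30.4 and 32.0 CPM against 33.4, 34.7, 41.5, 42.2 and 46.0 CPM, with no overlap, at -0.40 ± 0.11 (adjusted p = 0.35); 0.799% of all genes were lower without overlap.

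The difference in the amyloid response between segment backgrounds was tested as an interaction over all animals. All 9 estimates were below 0, at a median of -0.27, and none was called, nor was any gene (0% of all genes, 851 of 17518 at an unadjusted p under 0.05). Olfml3 was at -0.35 ± 0.19 (adjusted p = 0.942, 95% interval -0.74 to 0.03) and Cx3cr1 at -0.34 ± 0.16 (adjusted p = 0.942, -0.68 to -0.01). A smaller response on the Dp16 background was thus not established for any of the 9, and the intervals leave room for one. Without the 3 low libraries the median was -0.21.

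The segment by itself was compared with the amyloid transgenes absent. Dp16 against WT gave 0 of 9 calls in sham (all genes 0.308%) and in tofacitinib animals (all genes 0.268%), with medians of -0.07 and -0.04. Tmem119 in the sham arm did not overlap, at 22.8, 24.1 and 24.1 CPM in Dp16 against 25.2 to 33.5 CPM in WT (all genes lower without overlap 4.56%), with -0.31 ± 0.16 (adjusted p = 0.714). Over all animals, with and without amyloid, the segment gave 8 of 9 estimates below 0 at a median of -0.20, and 0 of 9 calls (all genes 1.38%). Sall1 was nearest, at -0.22 ± 0.06 (adjusted p = 0.0591), followed by P2ry13 at -0.31 ± 0.10 (adjusted p = 0.126) and Tmem119 at -0.22 ± 0.08 (adjusted p = 0.18). P2ry13 and Tmem119 were called lower without 5xFAD tofacitinib 2, at adjusted p of 0.0498 and 0.0469. That refit called 390 genes in all, against 242 over all animals. Sall1 was called lower without the 3 low libraries (-0.25 ± 0.06, adjusted p = 0.0274), where 1.89% of all genes were called. It was also called in 6 of 34 refits without 1 library, which called 206 to 261 genes in all. Siglech alone was above 0, at 0.15 ± 0.11 (adjusted p = 0.636).

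Tofacitinib blocks kinases that carry interferon and other cytokine signals, and the comparison asks whether a month of it shifts the homeostatic set. No member was called over all animals (0% of all genes, 1354 of 17518 at an unadjusted p under 0.05 and 0 members by DESeq2), and their median was -0.06. Sall1 had the largest difference, -0.16 ± 0.06 (adjusted p = 0.618). The 95% intervals of P2ry12 (-0.26 to 0.12), Tmem119 (-0.15 to 0.16) and Cx3cr1 (-0.23 to 0.11) exclude changes of the size that Olfml3 showed with amyloid. The amyloid estimates of these genes themselves, given above, were smaller than that of Olfml3. Intervals of the other members are not given here. Within genotypes 0 of 9 were called in WT, Dp16, 5xFAD and 5xFAD-Dp16 (all genes 0%, 0.00571%, 0% and 0%), with medians of -0.04, 0.02, -0.24 and 0.10. Without the 3 low libraries the median in 5xFAD was -0.14, and that in 5xFAD-Dp16 turned to -0.05, with 3 of 9 estimates above 0 in place of 8; P2ry12 there went from 0.02 to -0.25. In 5xFAD-Dp16, Sall1 was at 33.9, 38.9 and 41.2 CPM with sham and at 27.8 to 32.0 CPM with tofacitinib, -0.33 ± 0.13 (adjusted p = 0.668), without overlap (all genes lower 2.09%). The highest sham value there was that of the library low in hippocampal markers. The amyloid by tofacitinib interaction called 0 of 9 (0% of all genes, 324 of 17518 at an unadjusted p under 0.05), with a median of -0.02.

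The 9 genes were next set beside other microglial genes, to read content against state. With the amyloid transgenes, 9 of 18 other homeostatic genes rose (all genes higher 1.59%), at a median of 0.39, among them Cd33, a sialic acid-binding receptor (0.62 ± 0.10, adjusted p = 0.000181), Vsir (0.58 ± 0.09) and Selplg (0.49 ± 0.09). Of 20 genes general to microglia and macrophages 15 rose, at a median of 0.59, led by Ly86, a partner of the receptor Cd180 (1.10 ± 0.13, adjusted p = 1.82e-06), Cybb, the catalytic subunit of the phagocyte oxidase (1.89 ± 0.25), and the signalling chain Fcer1g (0.86 ± 0.11). Of 25 tested plaque-associated genes 19 rose, at a median of 1.03: the chemokine Ccl6 by 2.48 ± 0.18 (adjusted p = 1.28e-10), the cystatin Cst7 by 6.48 ± 0.46, the beta-glucan receptor Clec7a by 3.86 ± 0.36 and the endosomal protein Cd68 by 1.35 ± 0.13. The median of the 9 members, 0.46, thus lay between the other homeostatic and the general list and beneath the plaque-associated list. No list named here had a gene called lower. Without the 3 low libraries the counts of these lists were 11 of 18, 18 of 20 and 19 of 25, beside 1.58% of all genes.

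Some genes that act on the members also rose. Of 14 ligands and enzymes that act on them 4 rose (all genes higher 1.59%), at a median of 0.19: Ctss, the protease that frees fractalkine (0.87 ± 0.11, adjusted p = 8.43e-06), Tgfb1 (0.52 ± 0.09), Csf1 (0.32 ± 0.07, adjusted p = 0.013) and Entpd1, the ectonucleotidase that breaks down ATP and ADP (0.33 ± 0.09, adjusted p = 0.0458). Of 20 transcription factors and TGF-beta signalling genes 6 rose, among them Irf8 (0.99 ± 0.13), Tgfbr2 (0.55 ± 0.09), Tgfbr1 (0.33 ± 0.07) and Hhex (0.74 ± 0.17). Of 13 tested related purine and lipid receptors 2 rose, Gpr183 (0.95 ± 0.23, adjusted p = 0.0161) and P2ry6 (0.50 ± 0.13, adjusted p = 0.0404). P2ry6 is also on the list of other homeostatic genes and is counted there as well. The same 1.59% of all genes stands beside each of these counts. With the general level as a term in the fit, none of the genes named here was called (all genes 8.56%). Ctss, Tgfb1, Csf1 and Entpd1 were then at 0.11, -0.004, 0.06 and -0.11. Irf8, Tgfbr2, Tgfbr1 and Hhex were at 0.26, 0.29, -0.03 and 0.61, and Gpr183 and P2ry6 at 0.14 and -0.15. The amyloid comparison without the 3 low libraries called 4 of 14, 8 of 20 and 2 of 13 (all genes 1.58%). The ligand and enzyme median there was 0.06.

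Markers of other cells that share some of these genes were read alongside. Of 10 markers of border-associated macrophages 0 were called in the amyloid comparison. Their summed level was 17.4 to 36.1 CPM without and 21.6 to 45.1 CPM with the transgenes. Pf4, Cd209f, Ms4a7 and Clec10a had libraries at 0 counts. Mrc1, Cd163, Lyve1, F13a1, Cbr2 and Stab1 had counts in every library, up to 149 for Mrc1 and 438 for Stab1. Of 10 monocyte and neutrophil markers 4 passed the filter and 0 were called; the sum of those 4 was at most 3.84 CPM in any library, Ccr2 was at 0 counts in 6 libraries and Cxcr2 in 30. Of 10 T and B cell markers 4 passed and 0 were called. Their sum was 0.343 to 27.0 CPM (median 2.11) without and 0.672 to 25.4 CPM (median 1.76) with the transgenes. The 2 highest sums were in the groups WT tofacitinib and 5xFAD tofacitinib. In these groups the markers' mean log2 CPM was highest in WT tofacitinib 3 and 5xFAD tofacitinib 2, both low in hippocampal markers and high in striatal markers. Cd3d was at 0 in 29 libraries and Ms4a1 in 28, while Cd4 had counts in every library, up to 425. Trbc2 was at 0 in 1 library and reached 224 counts. The members' summed level, 298 to 382 CPM without and 308 to 750 CPM with the transgenes, was above these sums in every library. The sums hold different genes, so their order does not show how much of the members' RNA came from these other cells.

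Per animal, the mean log2 CPM of the 9 genes was 4.87 ± 0.08 (SD, n = 18) without the transgenes and 5.32 ± 0.31 (n = 16) with them. That of the general list was 3.00 ± 0.13 and 3.65 ± 0.34, and that of the plaque-associated list was 2.92 ± 0.17 and 4.30 ± 0.42. The members thus gained less than the general genes: members minus general was 1.87 ± 0.13 (1.62 to 2.12) without and 1.66 ± 0.12 (1.43 to 1.91) with the transgenes, ranges that overlap. Plaque-associated minus members was -1.95 ± 0.21 (-2.33 to -1.65) against -1.01 ± 0.20 (-1.46 to -0.69), ranges that do not. Without the 3 low libraries these 4 means were 1.87, 1.66, -1.95 and -0.997. These scores were formed on lists chosen with results known and carry no test. Within the general list Cybb and Ly86 rose by 1.89 and 1.10, against a list median of 0.59. Its level can thus join content and state, and the gap does not show less member RNA per cell.

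**Figure D4:**
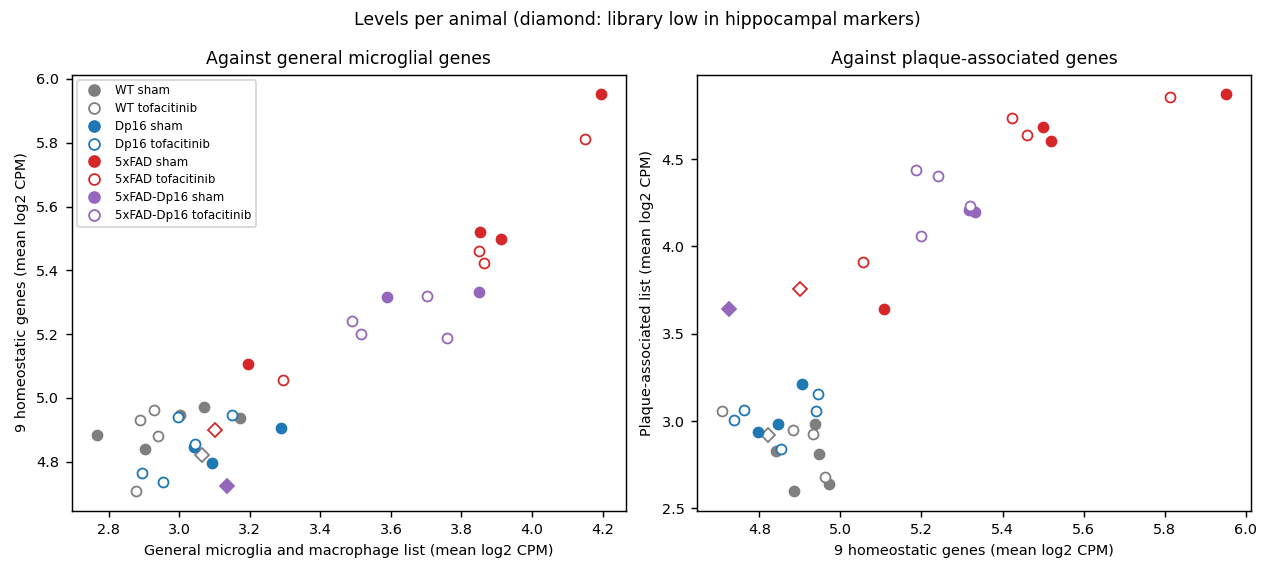
Mean log2 CPM of the 9 genes against the 20 general microglia and macrophage genes (left) and of the plaque-associated genes against the 9 genes (right), 1 point per animal, by genotype (colour) and treatment (filled: sham; open: tofacitinib); diamonds are the 3 libraries low in hippocampal markers. 5xFAD sham 2 is highest on the first axis pair, at 5.95 for the 9 genes and 4.19 for the general genes, and every animal with the transgenes lies above every animal without them on the plaque-associated axis, from 3.64 against at most 3.21.

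With the general level as a term in the fit, none of the 9 was called between animals with and without the transgenes, at a median of -0.03, while 8.56% of all genes were called in either direction. 10 of the 25 plaque-associated genes were called higher in that fit, at a median of 0.40, with Cst7 at 4.28 ± 0.35 and Clec7a at 2.09 ± 0.38. Tmem119 had the lowest estimate of the members, -0.24 ± 0.09 (adjusted p = 0.0826), followed by P2ry12 at -0.22 ± 0.11 (adjusted p = 0.201). Tmem119 was called lower in 3 of 34 refits, without WT sham 2, 5xFAD sham 4 or 5xFAD tofacitinib 6. Those refits called 1681, 2257 and 2213 genes in all, against 1500 over all animals. Leaving out 5xFAD tofacitinib 2 or 5xFAD-Dp16 sham 4 alone lowered that total to 9 and 16 genes, with 0 members called. Sall1 was highest, at 0.22 ± 0.09 (adjusted p = 0.132), and Csf1r, Cx3cr1 and Olfml3 were at -0.10, -0.03 and 0.07. The term itself was higher with the transgenes, and of the transgenic libraries it was lowest in the 2 rich in thalamic markers, at 3.10 and 3.14; 9 of 10 thalamic markers were called higher in this fit, at a median of 2.16. Without the 3 low libraries 0.0168% of all genes and 0 of 9 members were called, Tmem119 was at -0.12 ± 0.11 (adjusted p = 0.948), P2ry12 at -0.04 and Sall1 at -0.04, and 2 of 25 plaque-associated genes were called, at a median of 0.38.

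Ratios of members within an animal were also compared. Tmem119 over Csf1r, as a ratio of CPM, was 0.252 ± 0.034 (n = 18) without and 0.198 ± 0.035 (n = 16) with the transgenes, and Tmem119 over Olfml3 was 0.779 ± 0.109 and 0.561 ± 0.082. Cx3cr1 over Csf1r was 0.605 ± 0.048 and 0.588 ± 0.070. The ranges of each of these ratios overlapped between animals with and without the transgenes. A ratio shows unequal change and does not show which gene changed.

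Pooled over all 34 animals, the 9 genes varied together around their group means. Groups weighed unequally in this, by the SD of the members' mean log2 CPM. It was 0.05 to 0.10 in the groups without the transgenes and 0.06 in 5xFAD-Dp16 tofacitinib. In 5xFAD sham, 5xFAD-Dp16 sham and 5xFAD tofacitinib it was 0.35 to 0.36. Whether the genes varied together in each single group was not tested. After group means and sex were taken out, the 36 pairs had a median Pearson r of 0.63 over 34 animals, from 0.10 (Tmem119 with Sall1) to 0.85 (Cx3cr1 with Csf1r). Against the mean of the other 8, r was 0.89 for Cx3cr1 and Olfml3, 0.87 for P2ry12, 0.81 for Csf1r and 0.39 for Sall1. Sall1 was the loosest member. In 5xFAD tofacitinib 2 and 5xFAD-Dp16 sham 4, the lowest of their groups for 7 and 8 members, it was at 42.2 and 41.2 CPM. These are descriptions: the 9 values of an animal come from 1 library and share its depth and tissue makeup.

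Of 14446 other genes, the 10 most like the mean of the 9 by the same measure included Laptm5, a lysosomal membrane protein of the general microglia and macrophage list (r = 0.91 over 34 animals), Fcrls, C1qa, Selplg, Cd68, Mpeg1, C1qb, Lyn and Trem2 (r = 0.86). 2 subunits of complement C1q and the lipid receptor Trem2, a gene of the plaque-associated list, are thus among them. Of these 10, 9 rose with the amyloid transgenes, from Lyn at 0.35 (adjusted p = 0.0162) to Trem2 at 1.52 (adjusted p = 6.68e-07); Fcrls was at 0.55 and not called (adjusted p = 0.132). 7 of the 10 were also among the 10 most like the members without group means taken out.

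Positions of the 9 genes, in GRCm38 from GENCODE release M21, bear on how reads may be shared. The deposited tables are named for release M24, so spans and overlaps there may differ. P2ry12 (chr3:59216272-59262871, minus strand) and P2ry13 (chr3:59207892-59210882, minus strand) lie inside the span of Med12l on the other strand, at a median of 30.8 CPM. Gpr34 (chrX:13632089-13640858) lies opposite Cask, at 71.3 CPM, and Csf1r (chr18:61100598-61132149) overlaps Hmgxb3 on the other strand, at 43.1 CPM. The annotated span of Cx3cr1 (chr9:119901616-120069879) also covers Wdr48 and Gorasp1, at 61.0 and 28.4 CPM. Sall1 (chr8:89027235-89044162), Olfml3 (chr3:103722222-103738001), Tmem119 (chr5:113793729-113800516) and Siglech (chr7:55768178-55778925) overlap no other gene. The libraries are strand-specific per the labels, no source used here gives the strand setting of the counting, and its part in the levels was not tested.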

How the data were processed

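The authors deposited whole-number counts of reads by gene, 1 column a library, and RPKM values made from them, which equal counts per kilobase of a fixed gene length per M counts of the library. Per the submitters' processing notes the tools were bcl2fastq, FastQC 0.11.5, HISAT2 2.1.0, SAMtools 1.5 and HTSeq 0.6.1 with GRCm38, and no source used here gives the treatment of reads with several matches. Counts were tested with edgeR 4.0.16 (R 4.3.3, limma 3.58.1): TMM scaling, edgeR's filter on low counts by group (17518 of 55385 genes kept), and the quasi-likelihood test with group and sex as terms over 34 libraries, which leaves 25 residual degrees of freedom. P-values were adjusted by Benjamini-Hochberg over all genes tested, and a gene is called at an adjusted p under 0.05. CPM are counts per M scaled by TMM, with a prior count of 2 on the log2 scale. A further fit added the mean log2 CPM of 20 general microglia and macrophage genes. The procedure was tested on simulated data with the same spread for all genes and groups, which does not test unequal spread between groups. Totals were 14.9 to 21.1 M counts (median 17.8), and 58 pairs of libraries within groups all differed by more than sampling noise. Sex moved 11 genes and no member.

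The members, gene lists and tests were chosen with earlier results of these data known. All 9 members are named. Of each other microglial list the 4 genes of lowest p in the amyloid comparison were eligible to be named, and the 10 genes most like the members were named by Pearson r over 34 animals, among genes of at least 1 CPM on average. 1 gene that these rules select is not reported here. Libraries with the same replicate number did not deviate together (median r 0.018 over 98 pairs), so no block was used. Alternatives were DESeq2 1.42.0, its size factors, no filter, no sex term, a replicate block, the compared groups alone, leaving out each library, and leaving out the 3 libraries low in hippocampal markers.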

Additional observations from a re-analysis of the deposited data

Results flagged for a closer look

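Of 54 sets of values of 1 gene in 1 group of 4 or 5 animals, 1 had an animal far from the rest. P2ry13 was at 15.703 CPM in WT sham replicate 5, against 12.7 to 13.5 CPM in the other 4 animals of that group. Chance alone flags about 1 in 20 such groups. The value raises the WT mean that the 5xFAD and Dp16 sham animals were compared with, and P2ry13 was called in none of the sham comparisons.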

How the results depend on the processing

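The count of the 9 genes called higher with the amyloid transgenes over all animals, 7, was 7 to 9 under the other settings and 7 to 8 without single libraries. Over all genes that comparison called 279, against 884 of 31281 with no filter on low counts, 404 by DESeq2 and 218 with a replicate block, which kept the members' count at 7. The block lowered the ligand and enzyme list from 4 to 2 of 14, the transcription factor list from 6 to 4 of 20 and the receptor list from 2 to 0 of 13. For 5xFAD against WT in sham animals the count of 3 became 7 with no filter, 0 with the replicate block, 5 without the 3 libraries low in hippocampal markers, 5 by DESeq2, 0 with the compared groups alone and 0 to 5 without single libraries. In tofacitinib animals the count of 1 became 5 with no filter, 3 without the 3 libraries, 3 by DESeq2, 0 with the groups alone and 0 to 3 without single libraries. For 5xFAD-Dp16 against WT the count of 0 became 2 in sham animals with no filter, and in tofacitinib animals 5 with no filter and 1 each with no sex term, without the 3 libraries, by DESeq2 and with the groups alone. With no filter, 5xFAD-Dp16 against 5xFAD in sham animals gave 4, and against Dp16 in tofacitinib animals 3 (1 with the groups alone). The segment over all animals gave 3 with no filter, 1 without the 3 libraries, 1 by DESeq2 and 0 to 2 without single libraries. The fit at equal general level gave 0 to 1 without single libraries. The causes were not tested.

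Several uncalled log2 fold changes turned sign. P2ry12 in 5xFAD-Dp16 against WT sham was -0.063 with the groups alone and -0.12 to 0.36 without single libraries, and P2ry13 there was -0.023 to 0.28. Sall1 in 5xFAD-Dp16 against WT with tofacitinib was -0.064 to 0.050. Siglech in 5xFAD-Dp16 against 5xFAD sham was 0.13 with the replicate block, 0.21 without the 3 libraries and -0.36 to 0.24 without single libraries. At equal general level Cx3cr1 was 0.015 with the summed level as the term and -0.057 to 0.018 without single libraries, and Sall1 was -0.042 without the 3 libraries. Without the 3 libraries, tofacitinib against sham in 5xFAD-Dp16 turned for P2ry12 (0.022 to -0.247), P2ry13 (0.024 to -0.140), Cx3cr1 (0.102 to -0.048), Csf1r (0.158 to -0.053) and Siglech (0.089 to -0.141). In 5xFAD it turned for Tmem119 (-0.110 to 0.003) and Siglech (-0.098 to 0.024). P2ry13 turned from -0.016 to 0.046 in the amyloid by segment interaction. The others that turned without the 3 libraries were at most 0.032 from 0 in both fits: P2ry13, Sall1 and Siglech with tofacitinib in WT, Cx3cr1 in Dp16 against WT with tofacitinib, Tmem119 with tofacitinib over all animals, and Olfml3 and Csf1r in the amyloid by tofacitinib interaction. Groups hold 3 to 5 animals, and the smallest count of a member was 157.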
